A study of Zygosaccharomyces bailii with 18 samples.

Results

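The ORFs described here are the Zygosaccharomyces bailii homologues of Saccharomyces cerevisiae genes for RNA polymerase subunits and their factors, translation initiation factors and tRNA modification enzymes. They were chosen by the name of the homologue alone (names starting with RPA, RPB, RPC, RPO, TFC, RRN, TIF, SUI, GCD, TRM, PUS, DUS and a few more), and the rule found 40 of the 1296 ORFs with a named homologue in the tables published with the study. The deposited tables list 1701 ORFs in all. An ORF has a name there only if it was listed in at least 1 comparison, so that being listed is part of how the 40 were found and is not a result. The rule itself does not use the direction or the size of a change, but it was chosen with earlier results of these data known.

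mRNA was measured with a method that sequences the 3' ends of transcripts, in 18 libraries of 6 groups with 3 libraries each. The groups were the Zbhaa1∆ mutant with 0.08 mM copper, the parental strain IST302 with copper, the mutant and the parental strain with 140 mM acetic acid, and both strains without stress. All were grown at pH 4.0 in mineral medium with glucose and were exposed during exponential growth. Stress lasted 1 hour, and unstressed cells were collected when it began, so that stress and 1 hour of further growth cannot be told apart in a comparison with unstressed cells. Zbhaa1∆ lacks the gene of ZbHaa1, a transcription factor related to both Haa1, the weak acid regulator, and Cup2, the copper regulator, of S. cerevisiae, and is a single deletion strain derived from IST302. The deleted ORF, ZBIST_2620, was listed in 0 of the 6 tables, which thus hold no check of the deletion. The tables give, for each listed ORF, the authors' log2 fold change, its average level over both groups in log2 CPM (read counts scaled to the library total) and its false discovery rate (FDR) from edgeR. An ORF is listed where it changed 1.5-fold or more at an FDR under 0.05. No value per library was analysed here, so that the spread between the 3 libraries of a group, the overlap of single libraries and the depth behind a value cannot be given.

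In yeasts, RNA polymerase I transcribes the precursor of the large ribosomal RNAs, RNA polymerase III transcribes tRNAs and other short RNAs, and RNA polymerase II transcribes mRNAs. Translation initiation factors bring the initiator tRNA, the mRNA and the small ribosomal subunit together at the start codon, and tRNA modification enzymes alter single bases of tRNAs, which affects their stability and decoding. In S. cerevisiae many genes of these processes are transcribed together with those of ribosome production, at a level that follows growth.

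The labels give the copper table of the mutant as Zbhaa1∆ against the parental strain, both in copper. The legends of the published tables instead name unstressed cells as its reference. In its text the study also names unstressed cells, but it selects ZbHaa1-dependent genes against the parental strain under the same stress. The labels were followed here, because the reference levels implied by the copper table of the mutant were close to those of copper-treated parental cells. The median difference from the levels in the table of the parental strain was 0.03 log2 over 105 ORFs, against 0.73 for unstressed parental cells. These 105 ORFs were listed as changed between both parental groups, so that the 0.73 reflects that listing in part. Levels of unstressed mutant cells were not compared.

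In copper, 36 of the 40 ORFs were lower in Zbhaa1∆ than in the parental strain, 3 were higher (PUS5, TFC1 and RPB3) and 1 (PUS6) was not listed. For the 36, the median log2 fold change was -0.98, the lowest -2.08 and the highest -0.60. Of all 1296 named ORFs, 42.1% were lower and 40.3% were higher in this comparison. Of the 5141 protein-coding ORFs of the reference annotation, 12.4% were lower and 12.9% were higher. Among the listed ORFs alone, 92.3% of the polymerase, initiation and modification ORFs were lower, against 51.1% of all named ORFs. The size of the difference was close to that of other genes, with a median of -1.02 over all lower named ORFs. Over 2-fold changes made up 17 of their 36 (47.2%) and 339 of all 638 lower ORFs (53.1%). All of these ORFs had passed the same listing limits, so that sizes close to each other are in part a product of those limits.

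**Figure D1:**
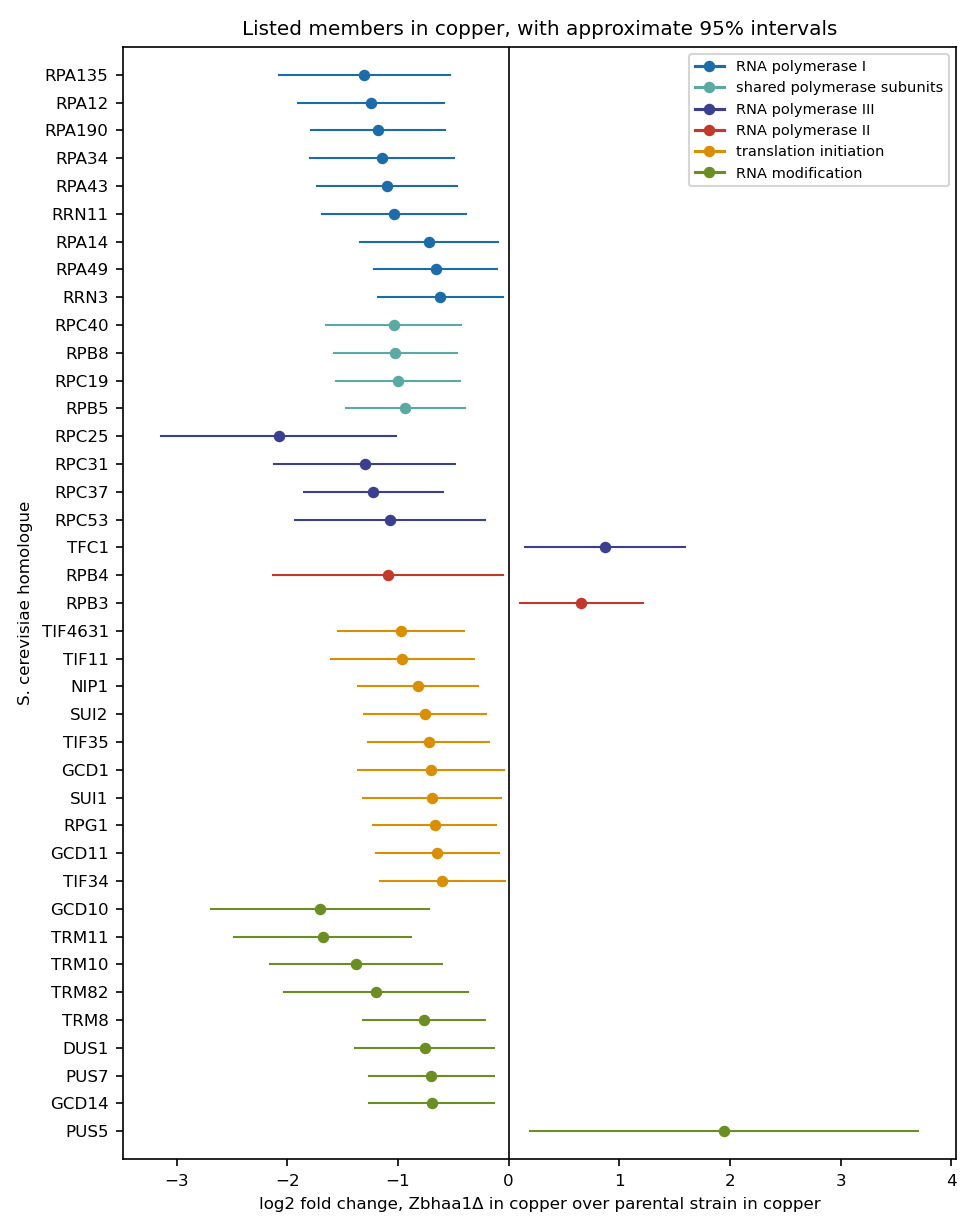
Log2 fold change of the 39 listed ORFs in copper, Zbhaa1∆ over the parental strain, one row per S. cerevisiae homologue and coloured by process. Lines are approximate 95% intervals from the largest standard error that the FDR allows. They exclude 0 by construction, since every listed ORF has an FDR under 0.05. 36 points lie left of 0, and PUS5, TFC1 and RPB3 lie right of it.

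Levels below are those that the fold change and the average imply for each strain in copper, in log2 CPM, and log2 fold changes are Zbhaa1∆ over the parental strain. The error given is the largest standard error that the FDR allows (SE limit), which was 0.32 as the median over the 39 listed ORFs and ran from 0.27 to 0.90. Intervals built on it are wider than the true ones, so that an interval of a difference that holds 0 does not show that both ORFs changed alike. The interval of a single listed ORF excludes 0 by construction, since its FDR is under 0.05. Since each transcript gives reads at its 3' end alone, levels were not divided by gene length.

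All 9 ORFs of RNA polymerase I were lower in Zbhaa1∆, with a median log2 fold change of -1.10. Both subunits that form the catalytic core were among them. RPA190 (ZBIST_1544), the largest subunit, had a level of 6.66 in Zbhaa1∆ and 7.84 in the parental strain, a log2 fold change of -1.18 (SE limit 0.31, FDR = 0.000128). RPA135 (ZBIST_1717), the second largest, had 5.57 in Zbhaa1∆ and 6.87 in the parental strain, a log2 fold change of -1.30 (SE limit 0.39, FDR = 0.000917). The difference between both fold changes was 0.12, with an approximate 95% interval of at most -0.86 to 1.10. RPA12 (ZBIST_0547), needed for cleavage of the nascent RNA, had 5.14 in Zbhaa1∆ and 6.39 in the parental strain (log2 fold change -1.24, FDR = 0.000226).

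The other RNA polymerase I subunits come as pairs. RPA34 (ZBIST_4432) and RPA49 (ZBIST_4241) form a dimer that stabilizes the enzyme. RPA34 had 5.58 in Zbhaa1∆ and 6.72 in the parental strain (log2 fold change -1.14, FDR = 0.000576). RPA49 had 5.97 in Zbhaa1∆ and 6.62 in the parental strain (log2 fold change -0.66, FDR = 0.0199). Their fold changes differed by -0.48, with an interval of at most -1.34 to 0.37. RPA43 (ZBIST_1543) and RPA14 (ZBIST_4082) form the stalk, to which initiation factors bind. RPA43 had 5.09 in Zbhaa1∆ and 6.19 in the parental strain (log2 fold change -1.10, FDR = 0.000622), and RPA14 had 5.27 in Zbhaa1∆ and 5.99 in the parental strain (log2 fold change -0.72, FDR = 0.0231). Their difference had an interval of at most -1.26 to 0.51.

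The initiation factors of RNA polymerase I were lower in Zbhaa1∆ as well. RRN3 (ZBIST_0868), which makes the polymerase competent to initiate, had 5.55 in Zbhaa1∆ and 6.16 in the parental strain (log2 fold change -0.62, FDR = 0.0321). RRN11 (ZBIST_2517), part of the core factor at the ribosomal DNA promoter, had 4.80 in Zbhaa1∆ and 5.83 in the parental strain (log2 fold change -1.03, FDR = 0.00183).

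4 ORFs for subunits that several polymerases share were lower in Zbhaa1∆ by like amounts, with log2 fold changes of -1.04 to -0.93. RPC40 (ZBIST_0729) and RPC19 (ZBIST_2902) form the assembly platform that polymerases I and III have in common. RPC40 had 4.83 in Zbhaa1∆ and 5.86 in the parental strain (log2 fold change -1.04, FDR = 0.000844), and RPC19 had 5.58 in Zbhaa1∆ and 6.58 in the parental strain (log2 fold change -0.998, FDR = 0.000478). Their fold changes differed by -0.04, with an interval of at most -0.87 to 0.79. RPB5 and RPB8 are part of polymerases I, II and III. RPB5 (ZBIST_0969) had 6.03 in Zbhaa1∆ and 6.96 in the parental strain (log2 fold change -0.93, FDR = 0.000665), and RPB8 (ZBIST_2697) had 6.23 in Zbhaa1∆ and 7.25 in the parental strain (log2 fold change -1.02, FDR = 0.000319).

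The 4 subunits specific to RNA polymerase III were all lower in Zbhaa1∆, each by over 2-fold, with a median log2 fold change of -1.26. RPC25 (ZBIST_0278), a stalk subunit used in initiation, had the lowest fold change of the 39 listed ORFs, at 3.73 in Zbhaa1∆ and 5.81 in the parental strain. Its log2 fold change was -2.08 (SE limit 0.54, FDR = 0.000128), with an approximate 95% interval of -3.14 to -1.01. RPC31 (ZBIST_2944), of the initiation subcomplex, had 3.92 in Zbhaa1∆ and 5.22 in the parental strain (log2 fold change -1.30, SE limit 0.42, FDR = 0.00187). RPC37 (ZBIST_1358) and RPC53 (ZBIST_4471) pair up and act in termination and reinitiation. RPC37 had 5.88 in Zbhaa1∆ and 7.10 in the parental strain (log2 fold change -1.22, FDR = 0.000128), and RPC53 had 3.82 in Zbhaa1∆ and 4.90 in the parental strain (log2 fold change -1.07, FDR = 0.0142). The interval of their difference was at most -1.21 to 0.91.

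TFC1 (ZBIST_3722) went the other way. It encodes a subunit of TFIIIC, the factor that recognizes tRNA gene promoters, and had 5.02 in Zbhaa1∆ and 4.15 in the parental strain, a log2 fold change of 0.87 (SE limit 0.37, FDR = 0.018). The remaining 5 TFIIIC subunits carried no name in the tables, so that TFC1 does not stand for the complex. The name RET1, of the second largest RNA polymerase III subunit, was attached to a pair of ORFs with opposite changes, ZBIST_4480 with a log2 fold change of -0.67 (FDR = 0.0216) and ZBIST_4878 with 0.72 (FDR = 0.00959). RET1 is also an older name of a coatomer gene of S. cerevisiae, and which ORF encodes the polymerase subunit could not be told from the name. ZBIST_4480 is annotated with 3432 bases and ZBIST_4878 with 3672 bases, and in S. cerevisiae the polymerase subunit is the shorter protein of both. Length alone does not assign them, and neither was counted.

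Of the subunits found only in RNA polymerase II, 1 was lower and 1 was higher. RPB4 (ZBIST_2005), of the stalk, had 2.5 in Zbhaa1∆ and 3.59 in the parental strain, a log2 fold change of -1.09 with a wide error (SE limit 0.53, FDR = 0.0397). RPB3 (ZBIST_3603), the counterpart of RPC40 in the assembly platform of this polymerase, had 7.98 in Zbhaa1∆ and 7.32 in the parental strain, a log2 fold change of 0.66 (SE limit 0.28, FDR = 0.0206).

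A wider list of 42 ORFs of the same or related processes, chosen with the published tables in view, held 11 ORFs of RNA polymerase II general transcription. In copper, Zbhaa1∆ had 8 of them higher and 1 lower, and 2 were unlisted. The largest were SUA7, which encodes TFIIB, with a log2 fold change of 1.44 (SE limit 0.39, FDR = 0.000218), and GPN3, a GTPase for the nuclear import of the polymerase, with 1.11 (SE limit 0.37, FDR = 0.00254). The median of the 8 was 0.77. ELF1, an elongation factor, was the lower one, with a log2 fold change of -0.68 (FDR = 0.0345). Beside this, 17 of the 18 ORFs of polymerase I, polymerase III and the shared subunits were lower. Of all named ORFs, 40.3% were higher and 42.1% were lower. The wider list is not complete, and MOT1 (ZBIST_0152), a regulator of RNA polymerase II transcription that it leaves out, was lower at -0.75. The split between both sets thus depends on the ORFs chosen, was seen in the tables and was not tested.

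**Figure D2:**
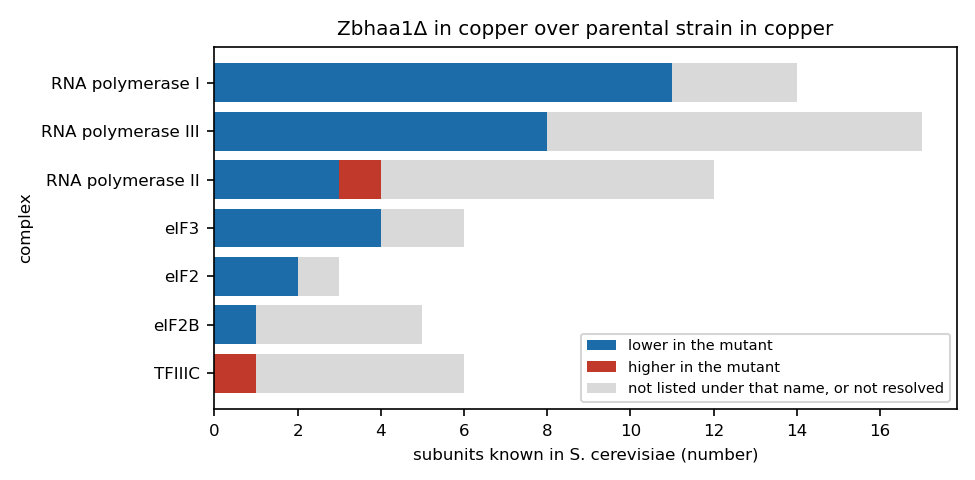
Subunits of 7 complexes as known in S. cerevisiae, counted by the direction of their Z. bailii homologue in copper, Zbhaa1∆ over the parental strain. Grey parts are subunits with no listed ORF of that name or, for RET1, an unresolved one. 11 of 14 subunits of RNA polymerase I were lower, against 12.4% of all annotated protein-coding ORFs.

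Counted by complex, shared subunits included, 11 of the 14 subunits of RNA polymerase I were lower in Zbhaa1∆ and 0 were higher. The 3 others, RPO26, RPB10 and RPC10, carried no name in the tables, and their mRNA levels are unknown. For RNA polymerase III 8 of 17 subunits were lower and 0 were counted as higher, while for RNA polymerase II 3 of 12 were lower and 1 was higher. Of the 3 lower subunits of RNA polymerase II, RPB5 and RPB8 are shared with the other polymerases. Over all 5141 annotated protein-coding ORFs, 12.4% were lower and 12.9% were higher. A subunit enters these counts only if its ORF was listed and named, so that they do not rank the complexes.

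All 10 ORFs of translation initiation factors were lower in Zbhaa1∆ in copper. Their log2 fold changes, -0.97 to -0.60 with a median of -0.71, were among the smaller ones of the group. Of the 10, 0 were lower by over 2-fold. An ORF with a larger error must change more to be listed, and most RNA polymerase III subunits had larger SE limits. The sizes thus do not rank the processes. The abundant mRNAs of the group were mostly theirs, as 8 of the 10 had an average of at least 7 log2 CPM, against 2 of the other 29 listed ORFs.

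TIF4631 (ZBIST_4371), which encodes eIF4G, the scaffold that joins the cap-binding protein to the ribosome, had 7.96 in Zbhaa1∆ and 8.94 in the parental strain (log2 fold change -0.97, SE limit 0.29, FDR = 0.000815). TIF11 (ZBIST_4603), which encodes eIF1A, had the highest level of the 39 ORFs, at 9.11 in Zbhaa1∆ and 10.07 in the parental strain (log2 fold change -0.96, SE limit 0.33, FDR = 0.00369). SUI1 (ZBIST_4236), which encodes eIF1 and acts with eIF1A in start codon selection, had 5.52 in Zbhaa1∆ and 6.21 in the parental strain (log2 fold change -0.69, SE limit 0.32, FDR = 0.0299).

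eIF3, the large factor that binds the small ribosomal subunit, was represented by 4 of its 6 subunits, all lower, with a median log2 fold change of -0.69. NIP1 (ZBIST_0619) had 6.70 in Zbhaa1∆ and 7.51 in the parental strain (log2 fold change -0.82, FDR = 0.0031). TIF35 (ZBIST_3326) had 8.97 in Zbhaa1∆ and 9.70 in the parental strain (log2 fold change -0.72, FDR = 0.0093). RPG1 (ZBIST_2847), the largest subunit, had 8.24 in Zbhaa1∆ and 8.90 in the parental strain (log2 fold change -0.67, FDR = 0.019), and TIF34 (ZBIST_0348) had 7.70 in Zbhaa1∆ and 8.30 in the parental strain (log2 fold change -0.60, FDR = 0.0372).

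The factors that deliver the initiator tRNA were lower in Zbhaa1∆ by like amounts. SUI2 (ZBIST_2818), the alpha subunit of eIF2 and the one that is phosphorylated under amino acid starvation, had 6.77 in Zbhaa1∆ and 7.52 in the parental strain (log2 fold change -0.76, FDR = 0.00744). GCD11 (ZBIST_4408), the gamma subunit of eIF2, had 7.13 in Zbhaa1∆ and 7.78 in the parental strain (log2 fold change -0.65, FDR = 0.023). GCD1 (ZBIST_0488), a subunit of eIF2B, which recharges eIF2 with GTP, had 4.64 in Zbhaa1∆ and 5.34 in the parental strain (log2 fold change -0.70, FDR = 0.0367). It was the 1 named subunit of the 5 of eIF2B.

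**Figure D3:**
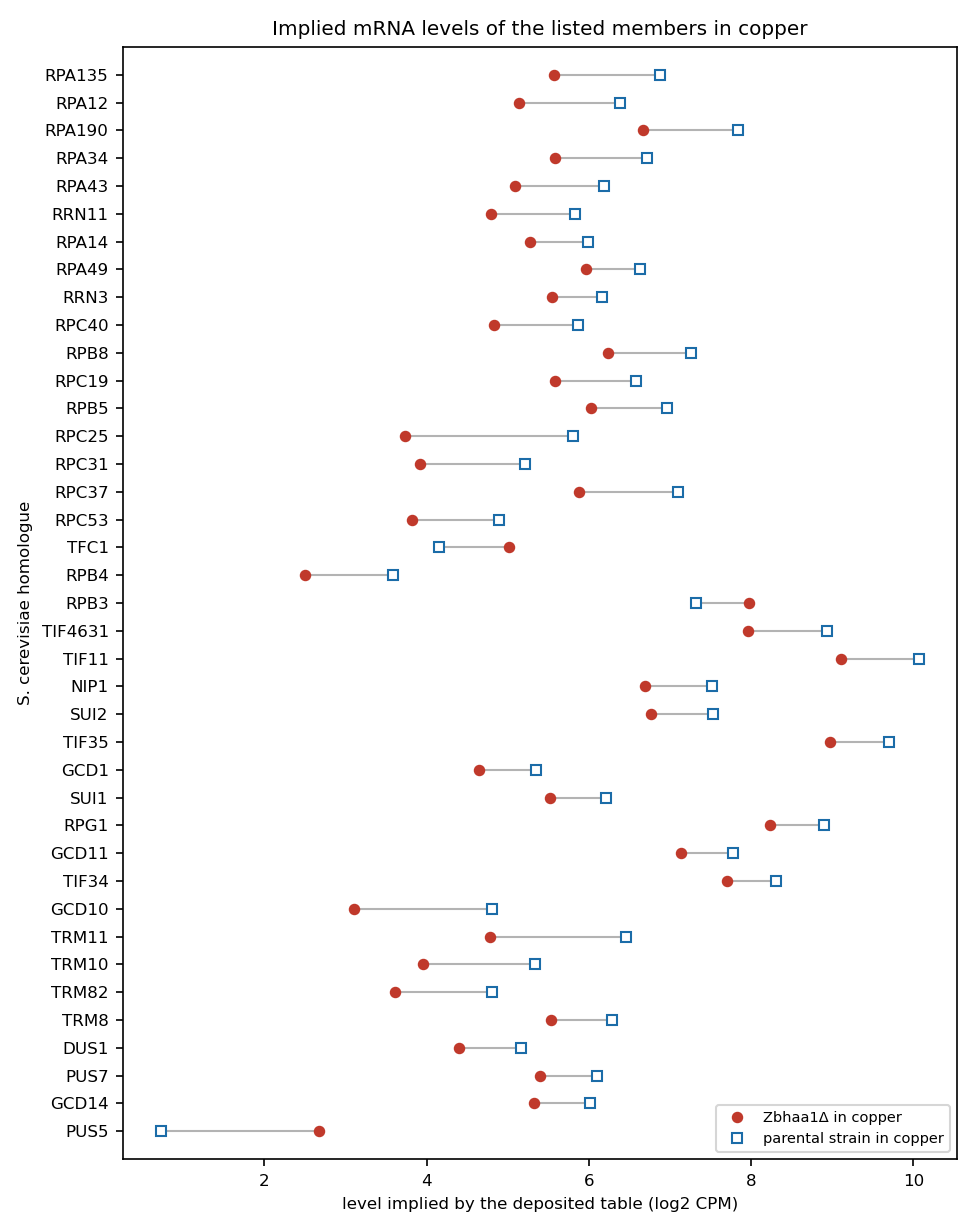
Implied mRNA levels in log2 CPM of the 39 listed ORFs in copper, filled circles for Zbhaa1∆ and open squares for the parental strain, ordered by process. The circle lies left of the square for 36 ORFs, and the initiation factors reach the highest levels.

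Of the other ORFs tied to translation in the wider list, 8 of 9 related to initiation were lower in copper and 0 were higher. The 8 include GCN4, which is not itself a translation factor. The median of the 8 was -0.76 on the log2 scale. GCN4, the activator of amino acid biosynthesis genes, whose translation in S. cerevisiae depends on eIF2 and eIF2B, had a log2 fold change of -1.67 (SE limit 0.40, FDR = 3.01e-05). It was listed in each of the 3 strain comparisons, also without stress at -1.85 (FDR = 1.55e-14) and in acetic acid at -2.09 (FDR = 1.09e-22). Its lower level in Zbhaa1∆ was thus not particular to copper. RLI1, a ribosome recycling protein that also associates with initiation factors, had -1.05 in copper (FDR = 0.0189). All 7 ORFs of elongation and termination on the list were lower, with a median of -0.90. SUP45, the release factor, had -1.34 (FDR = 0.00446), and DYS1, which modifies the elongation factor eIF5A, had -1.14 (FDR = 0.00029). MTQ1 (ZBIST_4186), a release factor methyltransferase that the list leaves out, was higher at 1.65. Of all named ORFs, 42.1% were lower and 40.3% were higher in copper. The counts of the wider list thus depend on the ORFs chosen.

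Of the 10 ORFs of RNA modification enzymes, 8 were lower in Zbhaa1∆ in copper, 1 was higher and 1 was not listed. Methyltransferases led the lower ones. GCD10 (ZBIST_4187) and GCD14 (ZBIST_2025) form an enzyme that methylates adenosine in tRNAs, the initiator tRNA among them. GCD10 had 3.11 in Zbhaa1∆ and 4.81 in the parental strain (log2 fold change -1.70, SE limit 0.50, FDR = 0.00069). GCD14 had 5.32 in Zbhaa1∆ and 6.02 in the parental strain (log2 fold change -0.70, SE limit 0.29, FDR = 0.0158). The difference between the partners was -1.01, with an interval of at most -2.14 to 0.13, which does not settle whether their changes were equal. TRM11 (ZBIST_1039), a guanosine methyltransferase subunit, had 4.78 in Zbhaa1∆ and 6.46 in the parental strain, and its log2 fold change of -1.68 (SE limit 0.41) had the smallest FDR of the group, 3.75e-05.

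TRM10 (ZBIST_0979), also a guanosine methyltransferase, had 3.96 in Zbhaa1∆ and 5.34 in the parental strain (log2 fold change -1.38, FDR = 0.0005). TRM8 (ZBIST_1141) is the catalytic and TRM82 (ZBIST_4100) the partner subunit of a further guanosine methyltransferase. TRM82 had 3.61 in Zbhaa1∆ and 4.81 in the parental strain (log2 fold change -1.20, FDR = 0.00471), and TRM8 had 5.53 in Zbhaa1∆ and 6.29 in the parental strain (log2 fold change -0.76, FDR = 0.00678). The interval of their difference was at most -1.43 to 0.56.

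The enzymes that alter uridine differed between the strains in both directions. DUS1 (ZBIST_2993), which makes dihydrouridine in tRNAs, had 4.40 in Zbhaa1∆ and 5.16 in the parental strain (log2 fold change -0.76, FDR = 0.0184). PUS7 (ZBIST_2723), a pseudouridine synthase of tRNAs and other RNAs, had 5.40 in Zbhaa1∆ and 6.10 in the parental strain (log2 fold change -0.70, FDR = 0.0151). PUS5 (ZBIST_1072), which in S. cerevisiae acts on mitochondrial ribosomal RNA and not on tRNA, had 2.67 in Zbhaa1∆ and 0.73 in the parental strain. Its log2 fold change of 1.95 had the widest error of the group (SE limit 0.90, FDR = 0.0296) at the lowest average, 2.01 log2 CPM, where a fitted fold change also depends on the count that edgeR adds to both groups.

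In the wider list, 11 of 13 ORFs of tRNA processing and modification were lower, 1 was higher and 1 was not listed. Of all named ORFs, 42.1% were lower. The lower ones of the 13 had a median log2 fold change of -0.88. POP3, a protein of the RNases that trim tRNA and ribosomal RNA precursors, had -2.31 (SE limit 0.94, FDR = 0.0143), and SMM1, a further dihydrouridine synthase, had -1.58 (SE limit 0.44, FDR = 0.000319). KTI12, a partner of the Elongator complex that modifies wobble uridines, was the higher one at 0.78 (FDR = 0.0114).

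**Figure D4:**
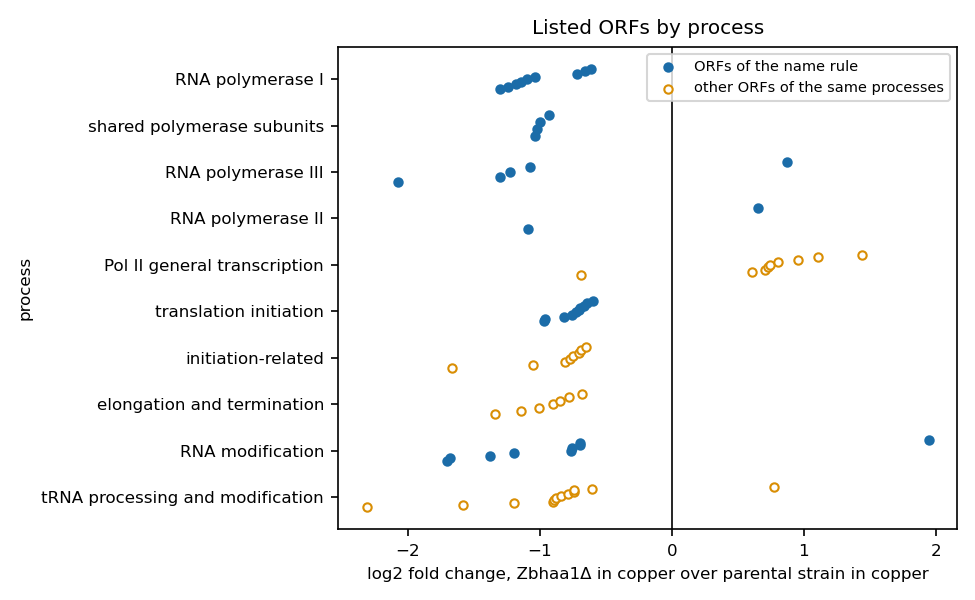
Log2 fold change in copper, Zbhaa1∆ over the parental strain, for listed ORFs by process, filled for the ORFs of the name rule and open for the wider list. The ORFs chosen for RNA polymerase II general transcription lie right of 0 except ELF1, while those of initiation and elongation lie left of it.

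Among the lower ORFs, the difference between the ends of the order, RPC25 and TIF34, was -1.48 with an interval of at most -2.68 to -0.28. This pair was picked as the extremes, so that its interval is a description. How many other pairs differed cannot be told from errors that are upper limits. The median level of the lower ORFs was 5.53 log2 CPM in Zbhaa1∆ and 6.34 in the parental strain. By process, the median level of the listed ORFs was 7.42 in Zbhaa1∆ and 8.04 in the parental strain for initiation. It was 5.55 in Zbhaa1∆ and 6.39 in the parental strain for RNA polymerase I, and 3.92 in Zbhaa1∆ and 5.22 in the parental strain for RNA polymerase III. The average over both strains was 5.89 log2 CPM as the median of the 39 ORFs, against 6.20 for all 1301 ORFs listed in copper.

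**Figure D5:**
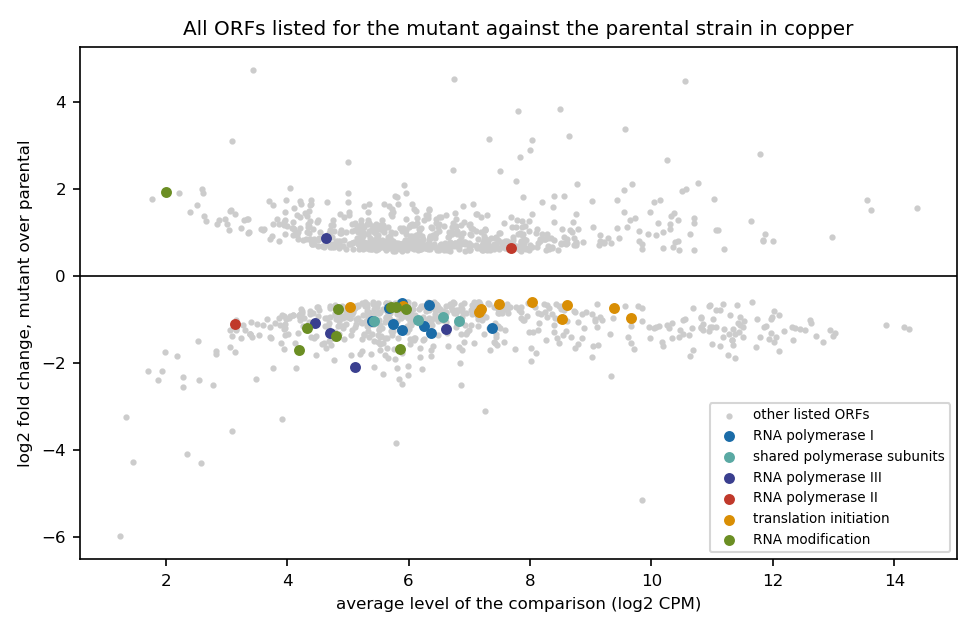
Log2 fold change of every ORF listed in copper, Zbhaa1∆ over the parental strain, against its average level in log2 CPM, with the 39 ORFs coloured by process. The gap around 0 is the fold change limit of the tables, and the 36 lower ORFs lie among the other lower ones from 3.15 to 9.67 log2 CPM.

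The other 5 comparisons listed few of the 40 ORFs, but also few ORFs of any kind beside the 5141 annotated protein-coding ORFs. With so few listed, finding none or hardly any of the 40 is not a result about these genes. None was listed for Zbhaa1∆ against the parental strain in acetic acid (56 ORFs listed) or without stress (14 ORFs), or for the parental strain in copper against unstressed cells (190 ORFs). This last comparison shares its copper-treated parental libraries with the strain comparison in copper. No unadjusted p of unlisted ORFs was used here, so that smaller changes remain unknown, and the difference between the copper comparison and these was not tested. The level of the 36 ORFs in copper-treated mutant cells relative to unstressed mutant cells is also unknown, as none of the 6 tables compares these groups by its labels.

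PUS6 (ZBIST_1271), a pseudouridine synthase of tRNAs, was the 1 ORF of the 40 listed as lower in acetic acid in the parental strain, where 13.3% of named ORFs were lower. It had 2.53 log2 CPM with the acid and 3.74 without it, a log2 fold change of -1.20 (SE limit 0.43, FDR = 0.00554). RPC19 was the 1 ORF listed as higher in acid-treated against unstressed Zbhaa1∆ cells, where 2.39% of named ORFs were higher. This comparison was identified by the name of its table alone. RPC19 had 7.33 log2 CPM in acid-treated and 6.70 in unstressed mutant cells, a log2 fold change of 0.63 (SE limit 0.21, FDR = 0.0026). Its lower level in copper, given above, is a difference between strains and not the same kind of contrast.

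Some ORFs of the wider list were also listed in these comparisons, and those named here beside GCN4 were chosen after their values were seen. In acid-treated against unstressed parental cells, HCR1, an eIF3 subunit, was higher with a log2 fold change of 0.64 (FDR = 0.00991), and TAF3 and SSU72, of RNA polymerase II transcription, were lower at -0.99 (FDR = 0.00244) and -0.67 (FDR = 0.0126). In copper-treated against unstressed parental cells, ARC1, a cofactor of tRNA synthetases, was higher at 1.30 (FDR = 0.0135) and CLU1, an eIF3-associated protein, was lower at -0.75 (FDR = 0.00652). CLU1 was lower again in Zbhaa1∆ against the parental strain in copper, at -0.77 (FDR = 0.00552). HYP2, which encodes eIF5A, was higher in acid-treated against unstressed Zbhaa1∆ cells at 0.60 (FDR = 0.0254), and lower in Zbhaa1∆ against the parental strain in copper at -1.01 (FDR = 0.00552).

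The genes were spread over the genome, on 19 of the 85 contigs that the reference annotation has. RPA43 and RPA190 were the 1 pair of the 40 that lay next to each other, with 1343 bases between them. Both were lower in Zbhaa1∆ in copper. The 36 lower ORFs had 72 neighbouring ORFs, of which 11 (15.3%) were lower and 9 (12.5%) were higher in copper. Over all annotated ORFs, 12.4% of neighbours were lower and 13.0% were higher, shares close to those beside the 36. Next to all 638 lower ORFs, 21.4% of neighbours were lower and 10.9% were higher.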

How the data were processed

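The labels put 18 libraries into 6 groups. The authors aligned reads with STAR 2.5.2a to the IST302 reference, made gene counts with HTSeq, kept genes at a CPM of 1 or more in 3 libraries of one group, scaled by TMM and tested with edgeR. Log2 fold changes and average log2 CPM were taken as deposited by the authors. The FDR values, which are adjusted p-values, were deposited by the authors in the same tables. The tables hold no other values, so that no model was refitted, and whether another scaling would shift the fold changes could not be tested on listed ORFs alone. Replicates come from independent experiments per the study's methods.

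The 40 ORFs were found through the homologue names of the published supplementary tables, which were read from page images, and 94 listed ORFs have no row there. Every ORF of the rule is named with its values; of the wider list, the largest 2 changes per process and direction, and those against the direction of their process. The members and lists were chosen with earlier results of these data known. The SE limit is the size of the log2 fold change divided by the normal quantile of the FDR taken as a two-sided p, and approximate 95% intervals follow from it. Since an FDR is at least as large as its p, these intervals are too wide. Intervals of differences treat both ORFs as independent. Levels per group were computed from the fold change and the average CPM with equal weight. Alternatives were stricter thresholds, a level minimum, other member lists and another averaging of levels. The calculations ran in Python 3.11.15 (pandas 2.3.3, scipy 1.17.1, numpy 2.4.6; figures with matplotlib 3.10.9) and were tested on simulated data.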

Additional observations from a re-analysis of the deposited data

How the results depend on the processing

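Of the 36 ORFs lower in Zbhaa1∆ in copper, 17 were left with a fold change above 2, 23 with an FDR below 0.01 and 35 with an average of at least 4 log2 CPM. Of the 3 higher ones 1 (PUS5), 0 and 2 were left. With the wider list, chosen with the published tables in view, the counts were 64 lower and 13 higher. Without the ORFs that act on mitochondrial rRNA or on RNA polymerase II alone they were 35 lower and 1 higher (TFC1). The median log2 fold change was between -1.19 and -0.78 under these settings. Each setting draws on ORFs that had already passed the listing limits, so that a median below 0 is no independent check. Taking the average as the mean of the log2 levels moved the level of RPC25 in Zbhaa1∆ to 4.07, against 3.73 otherwise, and those of the other ORFs in Zbhaa1∆ by less. No paired analysis was possible because the tables hold no values per library, and leaving out single libraries was not possible for the same reason. The search for promoter motifs was not run, as no genome was given. An ORF that is not listed may have changed by less than the limits, or not at all.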
